A study of Homo sapiens with 4 samples.

Results

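The levels of 10 snoRNA host genes whose spliced product is non-coding were compared between octanoate-treated and vehicle-treated melanoma cells: GAS5, SNHG1, SNHG5, SNHG6, SNHG8, SNHG12, SNHG15, SNHG16, ZFAS1 and DANCR. They were taken by gene symbol from a table of 56832 genes. Symbols matched for 9 of the 10, and DANCR was found under its older symbol KIAA0114, which RefSeq lists as a synonym of DANCR alone. RNA was sequenced from A375, an established human melanoma cell line labelled as wild type. One group received 1 mM octanoate, a saturated medium-chain fatty acid, and the other received the solvent isopropanol, both for 48 h, with 2 libraries in each. All results therefore come from 1 cell line at 1 dose and 1 time. The labels do not say whether the 2 libraries of a group came from separate cultures, so p-values measure only the spread between these libraries, which may be technical.

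Small nucleolar RNAs (snoRNAs) guide chemical modification of ribosomal and spliceosomal RNA. Box C/D snoRNAs guide methylation of the ribose, and box H/ACA snoRNAs guide the change of uridine to pseudouridine. In human cells most are cut out of introns of longer host transcripts. In the genes described here the introns carry the snoRNAs, while the spliced exons hold only short reading frames. The exon RNA is exported, is read briefly by ribosomes and is then degraded by nonsense-mediated decay (NMD), a surveillance pathway that requires translation. Many hosts also belong to the 5′ TOP class, whose RNA begins with a C followed by an unbroken run of C and T bases, and whose translation depends on mTOR. For these reasons the steady level of the exon RNA is known to respond both to transcription and to translation.

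By their snoRNAs the genes fall into 6 box C/D hosts (GAS5, SNHG1, SNHG5, SNHG6, SNHG16 and ZFAS1), 3 box H/ACA hosts (SNHG8, SNHG15 and DANCR) and SNHG12, which carries both kinds. Together they host 34 listed snoRNAs, of which GAS5 has 10 and SNHG1 has 8. In GENCODE 29 (GRCh38, the assembly also called hg38, which the submitters' processing notes name) each gene has between 5 and 29 annotated transcripts, with a median transcript length per gene between 470 and 1415 bases. At least 1 annotated transcript of 8 of the 10 genes started with a C in a run of at least 4 C or T bases. Among long non-coding genes with 5 or more annotated transcripts, 28.37% had such a start, and among such protein-coding genes 30.32%. A gene with more transcripts has more occasions for such a start, and these shares do not allow for that. At the most often annotated start of each gene, 5 of the 10 hosts had the run (GAS5, SNHG5, SNHG6, SNHG12 and SNHG16). The shares there were 3.87% of all long non-coding and 4.29% of all protein-coding genes. The start differed between transcripts of the same gene: it opened 6 of 29 GAS5 transcripts but only 1 of 25 SNHG1 transcripts. No transcript of SNHG15 or DANCR had it. The first 40 bases of such a transcript are printed for 7 genes, because most of the hosts have this start in at least 1 transcript. The most often annotated start of this kind is shown 5′ to 3′, with the opening run of C and T in capitals.
GAS5: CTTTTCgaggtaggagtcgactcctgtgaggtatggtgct
ZFAS1: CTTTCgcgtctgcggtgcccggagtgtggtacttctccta
SNHG5: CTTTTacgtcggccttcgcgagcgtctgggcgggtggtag
SNHG16: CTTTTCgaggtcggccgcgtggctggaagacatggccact
SNHG8: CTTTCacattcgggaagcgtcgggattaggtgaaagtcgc
SNHG1: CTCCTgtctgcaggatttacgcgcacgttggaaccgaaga
SNHG12: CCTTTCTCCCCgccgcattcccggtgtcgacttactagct
In GRCh38 the first printed base lies at position 173867989 of chromosome 1 for GAS5, 49278642 of chromosome 20 for ZFAS1, 85678733 of chromosome 6 for SNHG5 and 76557769 of chromosome 17 for SNHG16. It lies at 118278758 of chromosome 4 for SNHG8, 62855479 of chromosome 11 for SNHG1 and 28581873 of chromosome 1 for SNHG12. Among these 7 the capitals span 5 or 6 bases, except in SNHG12, where they span 11. SNHG6 also has such a start, a run of 7 bases in 3 of its 5 transcripts, and its sequence is not shown here. These letters describe the annotation and were not measured in these libraries.

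Whole reads could be recovered for every value of the deposited table (see the processing account), and came to between 67785956 and 78005035 per library. Melanocyte lineage and melanoma markers were present, with 9 of 10 at a mean normalised count of at least 10. SOX10 lay between 34072 and 41363 in the 4 libraries, while TYR, the pigment enzyme tyrosinase, stayed at 3.93 or below. The summed level of these 10 markers, led by CSPG4, was 88707 to 96695 in vehicle and 97171 to 105765 in octanoate. Its members did not move together. CSPG4 was at 46074 and 42355 in vehicle and 60680 and 57184 in octanoate. S100B was at 4234 and 3741 in vehicle and 1917 and 1746 in octanoate, and MITF was also lower in octanoate. Of 4 keratinocyte markers the sum was 960 to 1134 in vehicle and 228 to 274 in octanoate. It was led by KRT14, with KRT1 at 0 and both KRT5 and TP63 at 12.8 or below. Of 4 white blood cell markers the sum was 588 to 653 and 707 to 761. It was led by LYZ, with PTPRC at 10.8 or below and CD3E at 2.91 or below. Of 3 endothelial markers it was 201 to 207 and 338 to 347, led by PECAM1, and of 3 fibroblast markers 401 to 411 and 340 to 347, led by PDGFRA. The part of these markers in the results was not tested. In bulk RNA of this kind, fewer cells of a type and less RNA per cell cannot be told apart.

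The 10 host genes were all well covered, with between 1512 and 30875 reads per gene and library. Their reads made up 0.101% and 0.0998% of the vehicle libraries and 0.109% and 0.108% of the octanoate libraries. GAS5 alone held 32.3% and 31.9% of these reads in vehicle and 36.4% and 36.9% in octanoate. Without GAS5, the summed normalised count of the other genes was 51460 and 49172 in vehicle and 51887 and 49990 in octanoate, so that these 2 groups overlapped.

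Levels of different genes were compared per kilobase of the median annotated transcript length. On this scale GAS5 was highest, with a mean of 34573 normalised counts per kilobase in vehicle. SNHG5 followed at 20027, then SNHG6 at 13355, SNHG1 at 11358 and SNHG8 at 10422. DANCR was at 6875 and SNHG16 at 3958. The lowest were ZFAS1 at 2324, SNHG15 at 2152 and SNHG12 at 1731. The vehicle libraries of neighbouring genes in this order did not overlap. The order depends on the assumed lengths, since the annotation the authors counted on is not given in the sources used here. In octanoate SNHG8 (11399) stood above SNHG1 (11122), but their libraries overlapped there.

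**Figure D1:**
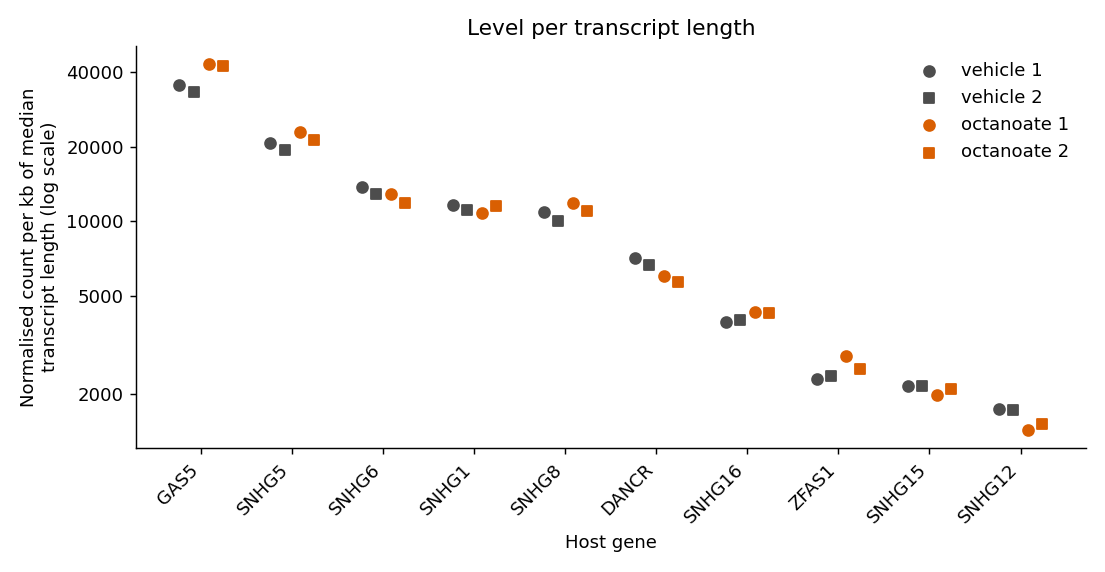
Normalised count per kilobase of median annotated transcript length (log scale) for each host gene, ordered by the vehicle mean, with 1 point for each of the 4 libraries. GAS5 is highest at a vehicle mean of 34573 and SNHG12 lowest at 1731.

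To ask how the host RNAs responded to octanoate, normalised counts were compared with limma over the 20250 genes whose mean reached 10, and a gene was called at a Benjamini-Hochberg adjusted p under 0.05. The host genes did not move as a group. GAS5 and ZFAS1 rose, SNHG12 and DANCR fell, and the other 6 were not called. Of all tested genes 29.9% were called, 16.2% as higher and 13.7% as lower. Above a mean normalised count of 1000, a range that holds all 10 hosts, 38.1% of tested genes were called, 18.1% as higher and 20.0% as lower. The share of hosts called (4 of 10) was thus near that of other genes at their level. The median log2 difference (octanoate minus vehicle) was 0.04 over the 10 hosts and 0.01 over all tested genes. Their median absolute log2 difference was 0.14, against 0.13 for tested genes above that mean.

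By kind of snoRNA, both called rises were in box C/D hosts, of which 4 had a positive and 2 a negative difference. Of the 3 box H/ACA hosts, 1 had a positive and 2 a negative difference, with 1 called lower and 0 higher. The host of both kinds was called lower. Among all tested genes with a mean of at least 1000, 18.1% were called higher and 20.0% lower. Whether the kinds differ was not tested.

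GAS5 (chr1:173863900-173868882, minus strand), named for its accumulation in growth-arrested cells, encodes an RNA that can bind the glucocorticoid receptor. Its normalised counts were 24568 and 23004 in vehicle and 29719 and 29173 in octanoate. Both octanoate libraries lay above both vehicle libraries, by more than the gap within either group. The means were 23786 ± 1106 and 29446 ± 386 (SD, n = 2 each). GAS5 rose by 0.31 on the log2 scale (SE 0.06, limma adjusted p 0.000224), or 23.9% more RNA with a 95% interval from 14.0% to 34.5%. The rise was called with each library left out in turn, at log2 differences from 0.26 to 0.36. It was not called when the intensity trend was left out of the variance prior (adjusted p 0.0859), a setting under which no host was called.

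ZFAS1 (chr20:49278178-49295738, plus strand) lies antisense to the start of ZNFX1 and hosts SNORD12, SNORD12B and SNORD12C. Its normalised counts were 1525 and 1561 in vehicle and 1883 and 1674 in octanoate. The groups did not overlap, but the octanoate libraries were 208 counts apart, more than the gap between octanoate 2 and the nearer vehicle library. The log2 difference was 0.20 (SE 0.07, limma adjusted p 0.0359), or 15.1% more RNA with a 95% interval from 3.81% to 27.5%. This call was the least stable of the 4. It was lost without vehicle 1 (adjusted p 0.162), vehicle 2 (0.0941) or octanoate 1 (0.397), and its log2 difference was 0.12 without octanoate 1. DESeq2 on the recovered reads gave an adjusted p of 0.0648.

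DANCR (chr4:52712404-52720351, plus strand), named for its opposing role in cell differentiation, carries the box H/ACA snoRNA SNORA26. Its normalised counts were 5303 and 4982 in vehicle and 4471 and 4231 in octanoate. Both octanoate libraries lay below both vehicle libraries. DANCR fell by 0.24 on the log2 scale (SE 0.06, limma adjusted p 0.00365), and the change was -15.4% with a 95% interval from -22.4% to -7.74%. The call was lost without vehicle 1 (adjusted p 0.0663) and without octanoate 2 (0.0580), where the differences were -0.20 in both cases.

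SNHG12 (chr1:28578538-28583132, minus strand) hosts SNORD99 and 3 box H/ACA snoRNAs. The 2 vehicle libraries, at 1895 and 1878 normalised counts, were close together, and the octanoate libraries were lower at 1556 and 1639. SNHG12 fell by 0.24 on the log2 scale (SE 0.07, limma adjusted p 0.00874), and the change was -15.3% with a 95% interval from -23.1% to -6.74%. Without vehicle 1 the adjusted p was 0.0604, and without octanoate 1 it was 0.0896.

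**Figure D2:**
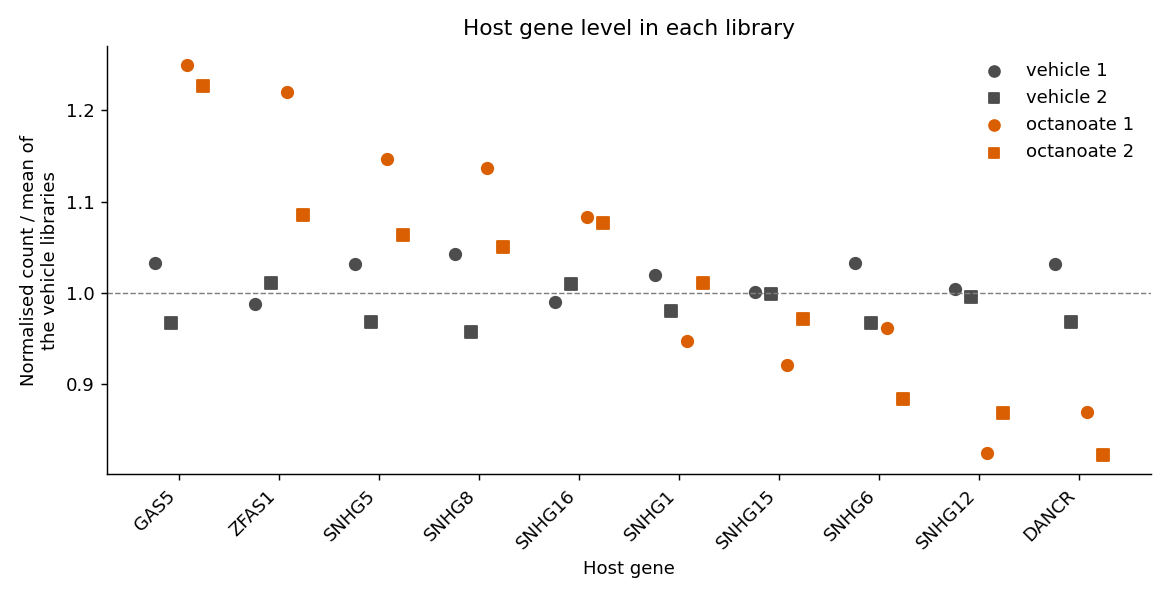
Normalised count of each host gene in each of the 4 libraries, divided by the mean of its 2 vehicle libraries (dashed line at 1). GAS5 reaches 1.25 and 1.23 in octanoate while DANCR is at 0.869 and 0.823, and the libraries of SNHG1 overlap.

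A ratio of 2 genes within a library needs no scaling between libraries. The ratio of GAS5 to SNHG12 normalised counts was 13.0 and 12.3 in vehicle and 19.1 and 17.8 in octanoate. The ratio of GAS5 to DANCR was 4.63 and 4.62 in vehicle and 6.65 and 6.90 in octanoate. These pairs were chosen after their values were seen, so no test is given. The ratios restate the calls of these genes and add no support to them.

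The remaining box C/D hosts were not called. SNHG5 (chr6:85660950-85678748, minus strand), host of SNORD50A and SNORD50B, had normalised counts of 13881 and 13035 in vehicle and 15427 and 14312 in octanoate. The groups did not overlap, and the log2 difference was 0.14 with a 95% interval from 0.02 to 0.27 (SE 0.06, limma adjusted p 0.0692). SNHG5 stood nearest to the threshold: edgeR on the recovered reads gave an adjusted p of 0.0341 and DESeq2 one of 0.0438. SNHG16 (chr17:76557766-76565348, plus strand), host of 3 forms of SNORD1, was at 5548 and 5654 in vehicle and 6068 and 6029 in octanoate. Its log2 difference was 0.11 with a 95% interval from -0.01 to 0.23 (limma adjusted p 0.151).

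SNHG6 (chr8:66921684-66926398, minus strand), host of SNORD87, had normalised counts of 7724 and 7233 in vehicle and 7189 and 6613 in octanoate. Vehicle 2 and octanoate 1 almost touched. The log2 difference was -0.12 with a 95% interval from -0.24 to 0.01 (limma adjusted p 0.156). SNHG1 (chr11:62851988-62855914, minus strand), whose introns carry SNORD22 and the SNORD25 to SNORD31 series, had 8664 and 8328 in vehicle and 8053 and 8586 in octanoate. It was the only host whose groups overlapped. The log2 difference of -0.03 was smaller than its standard error of 0.06 (limma adjusted p 0.740). Its 95% interval ran from -0.15 to 0.09, which holds the difference of SNHG6 or SNHG15 but not that of SNHG5, SNHG8 or SNHG16.

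Of the box H/ACA hosts, SNHG8 (chr4:118278709-118279823, plus strand), which carries SNORA24, had normalised counts of 5106 and 4691 in vehicle and 5570 and 5144 in octanoate. Its log2 difference was 0.13 with a 95% interval from 0.0004 to 0.26 (SE 0.06, limma adjusted p 0.125). Its octanoate 2 value was barely above that of vehicle 1. SNHG15 (chr7:44983023-44986961, minus strand), which carries SNORA9, had 1814 and 1811 in vehicle and 1670 and 1761 in octanoate. Its log2 difference was -0.08 with a 95% interval from -0.22 to 0.06 (limma adjusted p 0.410).

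Across the 10 genes the libraries of the groups did not overlap for 9, with 5 higher and 4 lower under octanoate. Of all tested genes, 32.6% were higher without overlap and 30.5% lower without overlap, so that non-overlap was common in these data. For 2 libraries against 2 an exact permutation test cannot give a two-sided p below 0.333. SNHG5, SNHG8, SNHG16 and SNHG6 were not called as reported, which does not show that they were unchanged: each was called with the replicate number as a block (adjusted p from 0.00202 to 0.0267, limma) and with trends on GC content and length removed (0.00558 to 0.0369). Both settings also called more of all genes tested. The share was 41.4% with the block, against 29.9% as reported. With those trends removed it was 46.7% of the 15144 genes found in GENCODE 29, against 35.9% of the same genes with no trend removed. The authors' deposited table gave 3 of the 10 genes an adjusted p under 0.05, against 25.1% of the genes it lists with an adjusted p below 1. The log2 fold changes in the authors' deposited table were 0.31 for GAS5, -0.24 for SNHG12 and -0.24 for DANCR. ZFAS1 had one of 0.21 with an adjusted p of 0.0892 in the authors' deposited table.

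**Figure D3:**
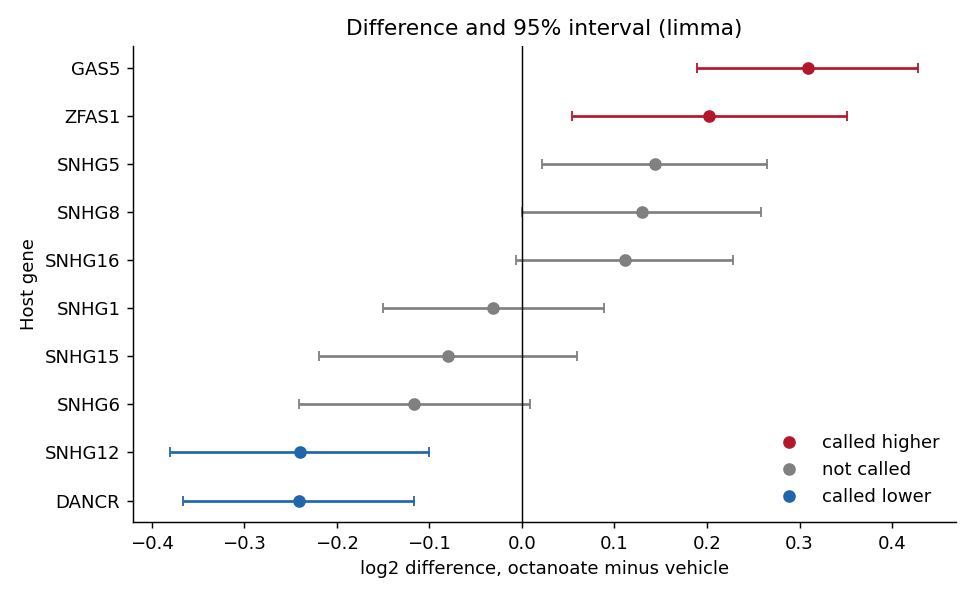
Log2 difference (octanoate minus vehicle, horizontal axis) of each host gene with its 95% interval from limma, coloured by call. GAS5 (0.31) and ZFAS1 (0.20) were called higher, and SNHG12 and DANCR (both -0.24) lower. Of the 6 grey genes, SNHG5 (0.02 to 0.27) and SNHG8 (0.0004 to 0.26) have intervals just above 0, and the intervals of the others hold 0. The intervals are not adjusted for the number of genes tested, while the calls are.

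Few reads were counted on the snoRNAs themselves. The parts of capture, annotation and counting in this were not tested. No snoRNA of GAS5 has a row. Of the 34 listed, 21 have a row in the table. Of these, 15 had 0 reads in each library, which allows up to 3 reads per library. Only 5 had a read in each of the 4 libraries, and 4 were deep enough to test. They are printed from GENCODE 29 transcripts, 5′ to 3′ as DNA letters. In the box C/D snoRNAs the capitals mark the letters TGATGA (C box) and the last CTGA (D box), and in SNORA26 they mark the ACA before the last 3 bases.
SNORD99: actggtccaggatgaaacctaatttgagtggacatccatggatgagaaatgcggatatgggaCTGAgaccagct
SNORD12B: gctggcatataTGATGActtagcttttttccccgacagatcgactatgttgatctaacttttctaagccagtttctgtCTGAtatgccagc
SNORD12C: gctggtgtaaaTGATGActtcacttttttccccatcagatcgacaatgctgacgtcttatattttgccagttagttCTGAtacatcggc
SNORA26: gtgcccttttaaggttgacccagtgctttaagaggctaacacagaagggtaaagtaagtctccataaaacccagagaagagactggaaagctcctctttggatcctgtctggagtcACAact
SNORD99 is at chr1:28578749-28578822 (minus strand) and SNORA26 at chr4:52713249-52713370 (plus strand). SNORD12B (chr20:49280319-49280409) and SNORD12C (chr20:49278940-49279028) both lie in ZFAS1, on the plus strand. No TGATGA was found in SNORD99. SNORD99, inside SNHG12, had 94 and 82 reads in vehicle and 77 and 73 in octanoate. SNORD12B had 39 and 33 reads in vehicle and 60 and 42 in octanoate, where its normalised counts of 57.8 and 45.5 lay above those of 38.3 and 32.0 in vehicle. Its log2 difference of 0.54 was not called (SE 0.26, limma adjusted p 0.121). SNORA26, inside DANCR, had 32 and 48 reads in vehicle and 25 and 30 in octanoate. SNORD12C had 14 and 23 reads in vehicle and 10 and 19 in octanoate. None of the 4 was called by limma, edgeR or DESeq2, and 1 of them (SNORD12B) had an unadjusted limma p under 0.05. Reads on such short intronic RNAs cannot be told apart from unspliced host RNA here.

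Several hosts share DNA with other genes. Whether the authors' counting was stranded is not given in the sources used here. Exons of ZFAS1 overlap those of ZNFX1 on the opposite strand by 249 bases in GENCODE 29. ZNFX1, which encodes an antiviral RNA sensor, had normalised counts of 6774 and 6684 in vehicle and 6209 and 6129 in octanoate. Its log2 difference of -0.13 was not called (SE 0.06, limma adjusted p 0.0999), and its sign was opposite to that of ZFAS1. Exons of SNHG6 overlap those of MCMDC2 by 365 bases, and MCMDC2 had at most 55.2 normalised counts (limma adjusted p 0.461). SNHG16 shares 1639 exon bases with AC015802.6 and DANCR shares 271 with AC104066.1, 2 genes not analysed here. The counts of ZFAS1, SNHG6, SNHG16 and DANCR are uncertain to that extent.

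GAS5 overlaps GAS5-AS1 by 42 exon bases, and no transcript of another gene matched it over 100 bases or more at 95% identity. GAS5-AS1 was at 35.3 and 35.8 normalised counts in vehicle and 34.7 and 27.1 in octanoate (limma adjusted p 0.634), far below GAS5. ZBTB37, which encodes a zinc finger protein and overlaps GAS5 on the opposite strand without shared exon bases, was at 1125 and 1180 in vehicle and 1155 and 1412 in octanoate (limma adjusted p 0.196). The ends of SNHG12 and TRNAU1AP overlap by 8 bases, and TRNAU1AP had a log2 difference of -0.05 (limma adjusted p 0.685). In the same sequence search SNHG12 matched 8 other genes over at most 137 bases, among them its own box H/ACA snoRNAs. SNHG5 matched 3 over at most 102 bases, and every host except GAS5 had a match. Matches shorter than 100 bases were not counted for any host. SNHG1, SNHG8 and SNHG15 matched only snoRNAs annotated within their own loci (SNORD22 and RF00099, SNORA24, and SNORA9). Of these, SNORD22, SNORA24 and SNORA9 had 0 reads in each library. The counts of the hosts with a match are uncertain to that extent too.

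SNHG1 starts 188 bases from SLC3A2 on the opposite strand, so that the pair lies head to head. SLC3A2 encodes the heavy chain of amino acid transporters of the cell surface. It rose from 25670 and 23724 normalised counts in vehicle to 31898 and 31054 in octanoate, which is 0.35 on the log2 scale (SE 0.06, limma adjusted p 5.96e-05). The 95% interval of SLC3A2, from 0.23 to 0.47, did not meet that of SNHG1, from -0.15 to 0.09.

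Related genes were read from lists taken from general knowledge. Among 18 other non-coding snoRNA hosts, 12 had a row and 11 were tested. Only SNHG11 was called, against 29.9% of all tested genes. It fell from 870 and 875 normalised counts to 715 and 700, and its log2 difference was -0.30 (SE 0.08, limma adjusted p 0.00604). The median of the 11 was -0.03, with 4 positive and 7 negative differences. Their range, from -0.33 to 0.15, did not reach the difference of GAS5. Without vehicle 2, 3 of the 11 were called lower.

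Many snoRNAs lie instead in introns of protein-coding genes, many of them for ribosomal proteins and translation factors of the 5′ TOP class. Of 38 such hosts 1 rose, 3 fell and 34 were not called, at a median log2 difference of 0.02. Beside these stand 16.2% called higher and 13.7% lower among all tested genes. Among those with a mean of at least 1000 the shares were 18.1% and 20.0%. TAF1D, which encodes a subunit of the RNA polymerase I initiation factor, rose from 11750 and 11654 normalised counts to 13013 and 13219 (log2 difference 0.16, limma adjusted p 0.0266). HSPA8, the constitutive cytosolic chaperone, fell from 209827 and 203237 to 162426 and 152973 (log2 difference -0.39, limma adjusted p 0.000112). NOP56, a core protein of box C/D particles, fell from 18054 and 17042 to 15484 and 15777 (log2 difference -0.17, limma adjusted p 0.0287). DKC1 was the third gene that fell. With no intensity trend 0 of these hosts rose and 0 fell. The replicate block gave 4 rises and 8 falls, and removal of trends on GC content and length 5 and 9. Both of these settings also called more of all genes. Without vehicle 1, octanoate 1 or octanoate 2 the list had 0 rises and 1 fall, and without vehicle 2 it had 0 rises and 3 falls.

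Proteins that build snoRNA particles were read next. Of 19 tested genes 0 rose, 5 fell (TGS1, SHQ1, DKC1, NOP56 and NOLC1) and 14 were not called, at a median log2 difference of -0.12. The 5 falls stand beside 13.7% lower among all tested genes and 20.0% among those with a mean of 1000 or more. NOP56 and DKC1 are also in the preceding list. TGS1, which adds the trimethyl cap to small nuclear and nucleolar RNAs, fell from 6553 and 6336 normalised counts to 5453 and 5509 (log2 difference -0.23, limma adjusted p 0.00301). SHQ1, an assembly factor of box H/ACA particles, fell from 4093 and 3964 to 3468 and 3602 (log2 difference -0.19, limma adjusted p 0.0197). Without vehicle 1 or octanoate 1 only 1 of the 19 was called, and without octanoate 2 only 2. With no intensity trend 0 were called lower, and with no filter 1. By edgeR 6 were lower and by DESeq2 7. The replicate block gave 10 lower and removal of trends on GC content and length 11, settings that also called more of all genes. None was higher by limma, edgeR or DESeq2, and 0 were higher and 9 lower at an unadjusted limma p under 0.05.

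NMD factors were a further list. Of 22 tested genes 0 rose, 8 fell and 14 were not called, at a median log2 difference of -0.10 with 6 positive differences. The same shares of all genes, 13.7% and 20.0%, stand beside the 8 falls. The genes that fell were SMG8, SMG6, PNRC2, DCP2, ETF1 and the exon junction complex genes EIF4A3, RBM8A and MAGOHB. SMG8, which encodes a regulator of the SMG1 kinase, fell from 2805 and 2652 normalised counts to 2232 and 2268 (log2 difference -0.28, limma adjusted p 0.00175). PNRC2, which encodes a link between UPF1 and decapping, fell from 10910 and 10783 to 8706 and 9235 (log2 difference -0.27, limma adjusted p 0.000632). UPF1, the central helicase of the pathway, was not called (log2 difference -0.06, limma adjusted p 0.516). Leaving out 1 library gave between 4 and 7 falls in this list, with 4 without vehicle 1 and 5 without octanoate 1 or octanoate 2. In addition 1 gene was called higher without octanoate 1. At an unadjusted limma p under 0.05, 0 were higher and 10 lower, and edgeR and DESeq2 called 0 higher. The 8 falls became 0 with no intensity trend and 2 with no filter. With the replicate block 3 genes were called higher and 11 lower, and after removal of trends on GC content and length 1 and 12.

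The last list held protein-coding mRNAs known to be sensitive to NMD. Of 8 genes 5 rose (ATF3, GADD45A, ATF4, GABARAPL1 and CARS1), 0 fell and 3 were not called, at a median log2 difference of 0.32, against 16.2% called higher among all tested genes. SESN1 had a negative difference. With no intensity trend 2 of the 8 were called higher. None was lower by limma, edgeR or DESeq2, or at an unadjusted limma p under 0.05. ATF3, a stress-induced transcription factor, rose from 372 and 333 normalised counts to 860 and 833 (log2 difference 1.26, limma adjusted p 1.67e-10). GADD45A, a growth arrest gene, rose from 2715 and 2634 to 4621 and 4578 (log2 difference 0.78, limma adjusted p 3.53e-10). ATF3 and CARS1 are also known targets of the transcription factor ATF4, so the list does not measure decay alone. Decay was not measured in these libraries, and the parts of transcription and decay in the host RNA levels cannot be told apart.

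**Figure D4:**
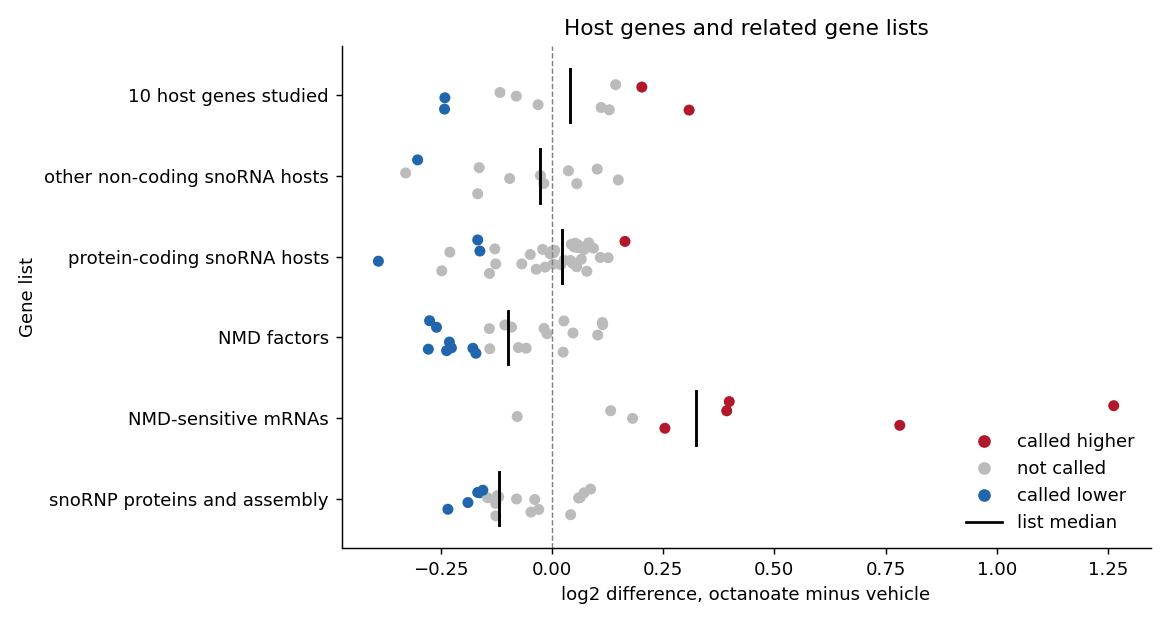
Log2 difference (octanoate minus vehicle, horizontal axis) of each tested gene in 6 lists, 1 point a gene, coloured by call, with the list median as a black line. The 10 host genes spread on both sides of 0 around a median of 0.04, the NMD-sensitive mRNAs have a median of 0.32, and NMD factors and snoRNP genes have medians of -0.10 and -0.12.

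The stability of each host gene was read over 16 alternative ways of processing the values. The differences rest on limma except where edgeR or DESeq2 is the alternative. GAS5 was called in 15 of the 16, SNHG12 and DANCR in 12 each and ZFAS1 in 10. SNHG5 was called in 6, SNHG6, SNHG8 and SNHG16 in 2 each, and SNHG1 and SNHG15 in none. With no filter on low values, limma gave adjusted p-values of 0.0700 for SNHG12, 0.0794 for DANCR and 0.2001 for ZFAS1. The sign of the difference was kept in each alternative for 9 of the genes. SNHG1 was the exception, with a log2 difference of 0.02 without octanoate 1.

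**Figure D5:**
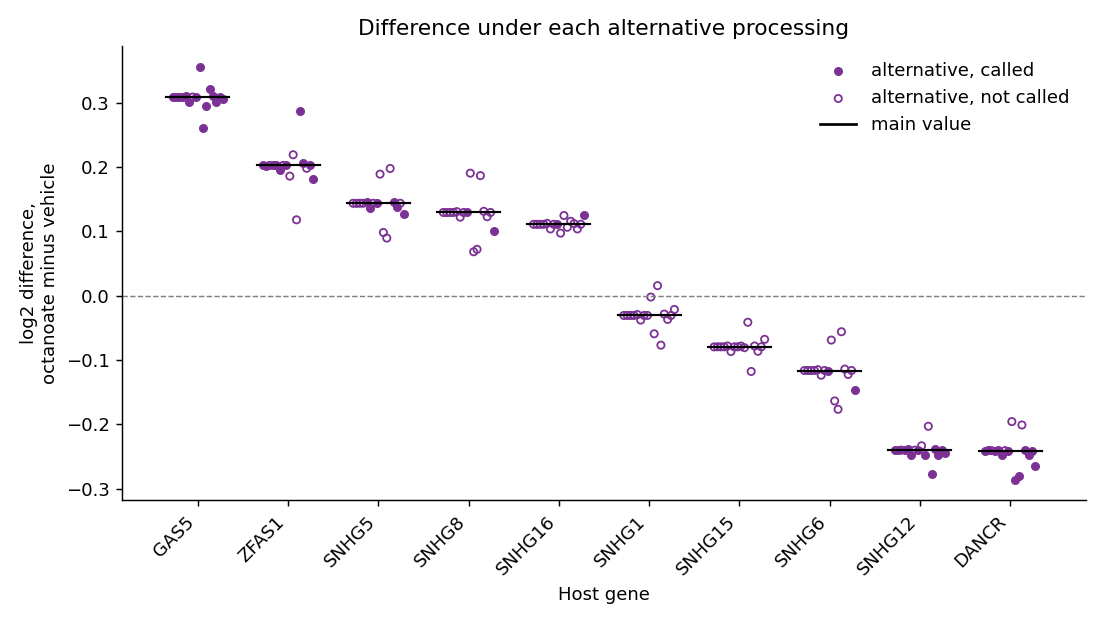
Log2 difference (octanoate minus vehicle, vertical axis) of each host gene under each of 16 alternatives (purple points, filled where called) and as reported (black line). GAS5 stays between 0.26 and 0.36, ZFAS1 ranges from 0.12 to 0.29, and SNHG1 alone crosses 0.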

How the data were processed

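RNA of 4 A375 libraries was measured by sequencing. The submitters' processing notes name bcl2fastq 2.17, Trim Galore, STAR 2.4, Picard, HTSeq 0.9.1, DESeq2 and hg38; the annotation and the strand setting are not given in the sources used here. The deposited signal is a gene count divided by 1 size factor per library, and neither gene length nor GC content enters it. Each value was a whole multiple of its library's smallest positive value (100% within 0.01), which gave back whole reads. The authors' second deposited table gives a log2 fold change, a test score, a p-value and an adjusted p-value per gene.

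Normalised values were fitted on a log scale, as log2(value + 1), with limma 3.58.1 (R 4.3.3) and a variance prior that follows intensity. It covered 20250 genes whose mean reached 10, two-sided, and the Benjamini-Hochberg adjustment took in all of them. Fold changes are on that log2 scale, which understates changes of low genes. Alternatives were pseudocounts of 0.5 and 5, no filter or a mean of 50, TMM or equal-total scaling, no trend, a replicate block, leaving out each library, edgeR 4.0.16 and DESeq2 1.42.0 on recovered reads, and removal of GC content and length trends. A 16th, using only genes found in GENCODE 29, was added after the data were seen. Shared sequence was searched with blastn 2.17.0 at 95% identity over 100 bases.

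On simulated counts for 20250 genes of this comparison, 4 of 97 calls (4.12%) were false; with so few calls its threshold was stricter than that of the data. Host genes, lists and tests were chosen with earlier results of these data known. All 10 hosts are named, and for the other lists up to 2 called rises and 2 called falls with a mean of at least 100, largest first. Tested genes that overlap a host or start within 1000 bases head to head are named too, except 1 that is not reported here. UPF1, the other called members of the lists, and the marker genes were named outside that rule.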

Additional observations from a re-analysis of the deposited data

How the results depend on the processing

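The called differences of the host genes are small and rest on 2 libraries a group. As reported, 2 hosts were higher and 2 lower, with 3271 and 2777 of all 20250 tested genes (29.9% called in either direction). With no filter 1 host (GAS5) was higher and 0 lower, with 1597 and 998 of 43449 genes (6.0%). Without the intensity trend 0 hosts were higher and 0 lower by limma (1095 and 530 genes), where 1 was higher and 2 lower at an unadjusted p under 0.05. On recovered reads edgeR called 3 higher and 2 lower, and DESeq2 2 and 2. Removing trends on GC content and length gave 5 higher and 3 lower hosts (SNHG6, SNHG12 and DANCR). Of the 15144 genes tested there, 3426 were higher and 3652 lower (46.7%). In the same genes with no trend removed, 35.9% were called. Leaving out 1 library gave 1 to 2 higher and 0 to 2 lower hosts, and 2322 to 2770 higher and 1525 to 2274 lower genes. GAS5 was the host called higher without vehicle 1, vehicle 2 or octanoate 1. With a lone library in 1 arm, that library is assumed to vary like the others. The causes of these shifts were not tested.

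What the replicate numbers stand for is not in the labels. The difference of replicate 1 from 2 correlated between the groups with a Pearson r of 0.126 over the tested genes and 0.390 over those with a mean of at least 1000, a range that holds the hosts; genes are not independent replicates. With the number as a replicate block, 5 hosts were higher (GAS5, ZFAS1, SNHG5, SNHG8 and SNHG16) and 3 lower, with 4307 and 4069 of all genes.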
